A study of Mus musculus with 4 samples.

Results

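Microtubule-binding proteins were described across the cell classes of the adult mouse retina in 10 genes: Dclk1, Dclk2, Eml2, Mapt, Map2, Map4, Map6, Map1b, Stmn1 and Stmn2. The genes were taken from a fixed list by their Ensembl gene identifier, and all 10 were found among 13452 Ensembl genes, with 41 of the 44325 isoforms in the table. Dclk1 and Eml2 were chosen from the isoform shares measured in these counts, so their changes between classes are given as a description. Retinas came from male mice of the inbred strain C57BL6/J, which were wild-type, and single-cell cDNA from 4 libraries was read on a nanopore instrument, which reads whole cDNA molecules. Of these libraries, 2 had no enrichment, 1 at postnatal day 40 and 1 whose age was not given. The other libraries were 1 with CD73 enrichment at postnatal week 8 and 1 with CD90.2 enrichment at postnatal month 4. CD73 marks photoreceptors and CD90.2 marks some neurons. The labels' protocols describe magnetic removal of CD73-positive cells and magnetic capture of CD90.2-positive cells, whereas the design text names FACS.

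Microtubules are polar tubes of tubulin that carry cargo along axons and dendrites and form the core of the photoreceptor cilium. Microtubule-associated proteins bind the outside of the tube and stabilise, bundle or space it, and stathmins bind free tubulin dimers and promote disassembly. Many of these genes make several proteins, through other first exons, skipped exons and early ends, that differ in which domains they carry.

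The counts stand in 6 columns, for rods, cones, bipolar (BC), amacrine (AC) and retinal ganglion (RGC) cells and Müller glia (MG). No column names a library, so each class is 1 value without replicates and no test between classes was made. For the same reason, a difference between classes cannot be told apart from one of enrichment or age. Column totals ran from 3509890 counts in ganglion cells to 55437340 in rods. Levels are counts per 1000000 of the column total (CPM) with exact Poisson 95% intervals, and shares carry Clopper-Pearson 95% intervals. Both cover only the error of counting, as reads of the same molecule may be counted more than once. For a count of 0, a limit of 3 counts was set apart from these intervals, which is 0.0541 CPM in rods and 0.855 CPM in ganglion cells. The exact interval at 0 counts is wider and reaches 1.05 CPM in ganglion cells. The marker lists of all 6 classes had their highest summed level in their own column. Of the 6 Müller glia markers, 1 was highest in amacrine cells. The horizontal cell list, with counts for 2 of its 3 markers, had its highest summed level in amacrine cells (72.1 CPM). Of these markers, 1 was highest in amacrine cells and 1 in bipolar cells. The Müller glia column also held the highest summed levels of the microglia (1238 CPM), pericyte (253 CPM) and pigment epithelium (8805 CPM) lists. The same held for the astrocyte (88.5 CPM) and endothelium (9.29 CPM) lists. Of the 4 pigment epithelium markers, 3 were highest in this column and 1 had 0 counts in it. In a pooled column, fewer expressing cells and less RNA per cell cannot be told apart.

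The sequences that separate the main isoforms of Dclk1, Eml2 and Map2 follow, read 5′ to 3′ from GENCODE M21 transcripts on GRCm38. Dclk1 and Eml2 are shown because a class-dependent first exon changes the start of the protein. In the following lines, capitals mark the bases before the junction with the first exon that both isoforms share, and the start codon opens the capitals of the internal and downstream forms. In the upstream forms, the capitals are the last 30 bases of the exon before that junction. They are not the first exon and hold no start of the isoform.
Dclk1 upstream start: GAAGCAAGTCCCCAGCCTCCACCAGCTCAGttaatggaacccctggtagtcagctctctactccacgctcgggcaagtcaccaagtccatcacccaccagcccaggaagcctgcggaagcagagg
Dclk1 internal start: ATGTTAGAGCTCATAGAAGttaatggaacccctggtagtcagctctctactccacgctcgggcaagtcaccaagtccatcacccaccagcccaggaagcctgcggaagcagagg
Eml2 upstream start: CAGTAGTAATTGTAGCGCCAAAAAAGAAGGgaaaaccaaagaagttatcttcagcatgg
Eml2 downstream start: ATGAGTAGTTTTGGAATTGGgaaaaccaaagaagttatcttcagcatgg
The capitals lie on the + strand at chr3:55451054-55451083, chr3:55462064-55462082, chr7:19179826-19179855 and chr7:19181204-19181223, in that order. The main Dclk1 isoform of rods lies further downstream. Its second exon holds 162 coding bases at chr3:55533570-55533731, in capitals after the last bases of its first exon.
Dclk1 3-prime model: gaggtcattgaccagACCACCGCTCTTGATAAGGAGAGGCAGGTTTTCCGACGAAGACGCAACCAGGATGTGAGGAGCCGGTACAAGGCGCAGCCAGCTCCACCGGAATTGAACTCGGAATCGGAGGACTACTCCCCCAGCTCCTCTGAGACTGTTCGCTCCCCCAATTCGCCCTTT
The skipped exon of Eml2, at chr7:19201830-19201927, is shown in capitals between 15 bases of each neighbouring exon.
Eml2 cassette exon: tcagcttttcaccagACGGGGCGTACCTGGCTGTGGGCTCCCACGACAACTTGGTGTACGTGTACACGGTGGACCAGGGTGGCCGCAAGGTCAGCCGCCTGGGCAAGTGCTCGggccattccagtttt
In Map2, 2 exons began at either of a pair of sites that lie 3 bases apart, at chr1:66420135-66420137 (site 1) and chr1:66401444-66401446 (site 2), and the capitals mark the bases left out by the shorter form.
Map2 site 1: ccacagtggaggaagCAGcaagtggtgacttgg
Map2 site 2: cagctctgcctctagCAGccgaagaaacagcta

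Dclk1, a kinase related to doublecortin whose full form joins microtubule-binding domains to a kinase domain, was highest in rods and amacrine cells. Its level was 23.8 CPM in rods, 18.6 in amacrine cells, 11.9 in Müller glia, 10.1 in cones, 7.12 in ganglion cells and 1.86 in bipolar cells. The intervals of neighbours in this order overlapped between Müller glia and cones and between cones and ganglion cells. Rods and amacrine cells, the highest classes, used different isoforms.

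Isoform 1 of Dclk1 (Dclk1-210) is a 470-nt model of 2 exons that the annotation lists as a processed transcript without a protein. It took 1308 of 1321 counts in rods (99.0%, 98.3 to 99.5), 70 of 74 in cones (94.6%) and 35 of 54 in bipolar cells (64.8%). It took 13 of 73 in Müller glia (17.8%), 13 of 898 in amacrine cells (1.45%) and 0 of 25 in ganglion cells. Photoreceptors thus read Dclk1 almost entirely from this 3′ model. Its 163-nt first exon overlapped no exon of another annotated Dclk1 transcript and lay in an intron of 6 of the 10 complete coding transcripts. The level of isoform 1 was 23.6 CPM in rods, 9.58 in cones, 2.12 in Müller glia and 1.21 in bipolar cells. The summed level of 6 rod markers was 20742 CPM in rods, 851 in cones, 1211 in Müller glia and 358 in bipolar cells, and the part of rod RNA in the isoform's level outside rods was not tested.

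Isoform 2 of Dclk1 (Dclk1-212) has 3 exons, starts from the internal first exon and has an annotated protein of 56 amino acids. It took 20 of 25 counts in ganglion cells (80.0%, 59.3 to 93.2) and 663 of 898 in amacrine cells (73.8%, 70.8 to 76.7). Its counts were 17 of 73 in Müller glia, 5 of 1321 in rods, 1 of 74 in cones and 0 of 54 in bipolar cells. Amacrine and ganglion cells thus used this isoform, and bipolar cells had no count of it.

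Isoform 3 of Dclk1 (Dclk1-203), with 7 exons and a protein of 363 amino acids, was the longest form with a model. It took 43 of 73 counts in Müller glia (58.9%, 46.8 to 70.3), 19 of 54 in bipolar cells (35.2%) and 159 of 898 in amacrine cells (17.7%). It took 5 of 25 in ganglion cells (20.0%), 3 of 74 in cones (4.05%) and 8 of 1321 in rods (0.606%). The longest annotated Dclk1 protein has 756 amino acids, and no isoform with known exons covered it. Isoform 4, with 63 counts in amacrine cells and 0 elsewhere, has no model.

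Dclk2, the close relative of Dclk1, was counted mainly in amacrine cells (127 counts, 2.63 CPM) and bipolar cells (65 counts, 2.24 CPM), whose intervals overlapped. It had 3 counts in Müller glia and 1 each in cones, rods and ganglion cells. These counts were spread over 11 isoforms, of which 1 had a model. That isoform, Dclk2-209, has 16 exons, encodes 755 amino acids and held 14 of the 198 counts. The most abundant isoform held 27 of 65 counts in bipolar cells (41.5%) and, as another isoform, 30 of 127 in amacrine cells (23.6%), with a largest difference of 28.9 percentage points. Isoforms 3, 4, 5, 7 and 8 each took between 10.2% and 16.9% in at least 1 of these classes.

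Eml2, a WD-repeat protein of the echinoderm microtubule-associated family, was highest in ganglion cells. Its level was 33.9 CPM in ganglion cells, 20.1 in Müller glia, 15.0 in amacrine cells, 4.31 in bipolar cells, 0.667 in rods and 0.411 in cones (3 counts). Only the intervals of rods and cones, the lowest neighbours, overlapped. Rods, the highest class for Dclk1, were thus near the bottom for Eml2.

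Isoform 1 of Eml2 (Eml2-202) has 22 exons, begins at the upstream start and encodes 841 amino acids. It took 112 of 119 counts in ganglion cells (94.1%), 386 of 723 in amacrine cells (53.4%), 70 of 125 in bipolar cells (56.0%) and 15 of 37 in rods (40.5%). In Müller glia it took 2 of 123 (1.63%). There isoform 3 (Eml2-203), which begins at the downstream start and encodes 649 amino acids, took 121 of 123 counts (98.4%, 94.2 to 99.8). Isoform 3 also took 20 of 37 counts in rods (54.1%), 18 of 125 in bipolar cells (14.4%) and 18 of 723 in amacrine cells (2.49%), and 0 of 119 in ganglion cells. Müller glia and ganglion cells thus sat at opposite ends. The part of other cell types in the Müller glia column in this share was not tested.

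The starts of both Eml2 forms equal starts in RefSeq, and the 250 bases before each are shown on GRCm38.p6, + strand, because the 2 forms begin there. Capitals mark matches on either strand to the motifs TATAAA and CCAAT or to the motif GGGCGG. The upstream sequence is chr7:19176171-19176420 and the internal one is chr7:19180920-19181169.
Eml2 promoter at the upstream start: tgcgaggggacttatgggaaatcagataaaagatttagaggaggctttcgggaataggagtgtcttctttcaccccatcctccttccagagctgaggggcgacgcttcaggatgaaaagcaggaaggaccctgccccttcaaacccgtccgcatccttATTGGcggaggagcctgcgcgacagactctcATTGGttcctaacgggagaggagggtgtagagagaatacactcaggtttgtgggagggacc
Eml2 promoter at the internal start: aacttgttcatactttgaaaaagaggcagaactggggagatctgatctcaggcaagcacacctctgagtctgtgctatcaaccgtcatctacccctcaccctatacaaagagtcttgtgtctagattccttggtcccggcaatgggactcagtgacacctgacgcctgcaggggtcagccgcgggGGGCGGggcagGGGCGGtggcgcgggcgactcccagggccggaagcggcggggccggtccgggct
The upstream sequence holds 2 matches to CCAAT, 10 CpG and 54.0% G and C, and the internal one 2 matches to GGGCGG, 15 CpG and 61.2% G and C. Over 32851 RefSeq promoters of this length, 33.8% held CCAAT, 32.7% held GGGCGG and 12.4% held TATAAA, and the median was 6 CpG. The internal start of Dclk1 has 46.8% G and C, 4 CpG and 0 matches to these motifs in the same window. The matches describe these letters only.

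**Figure D1:**
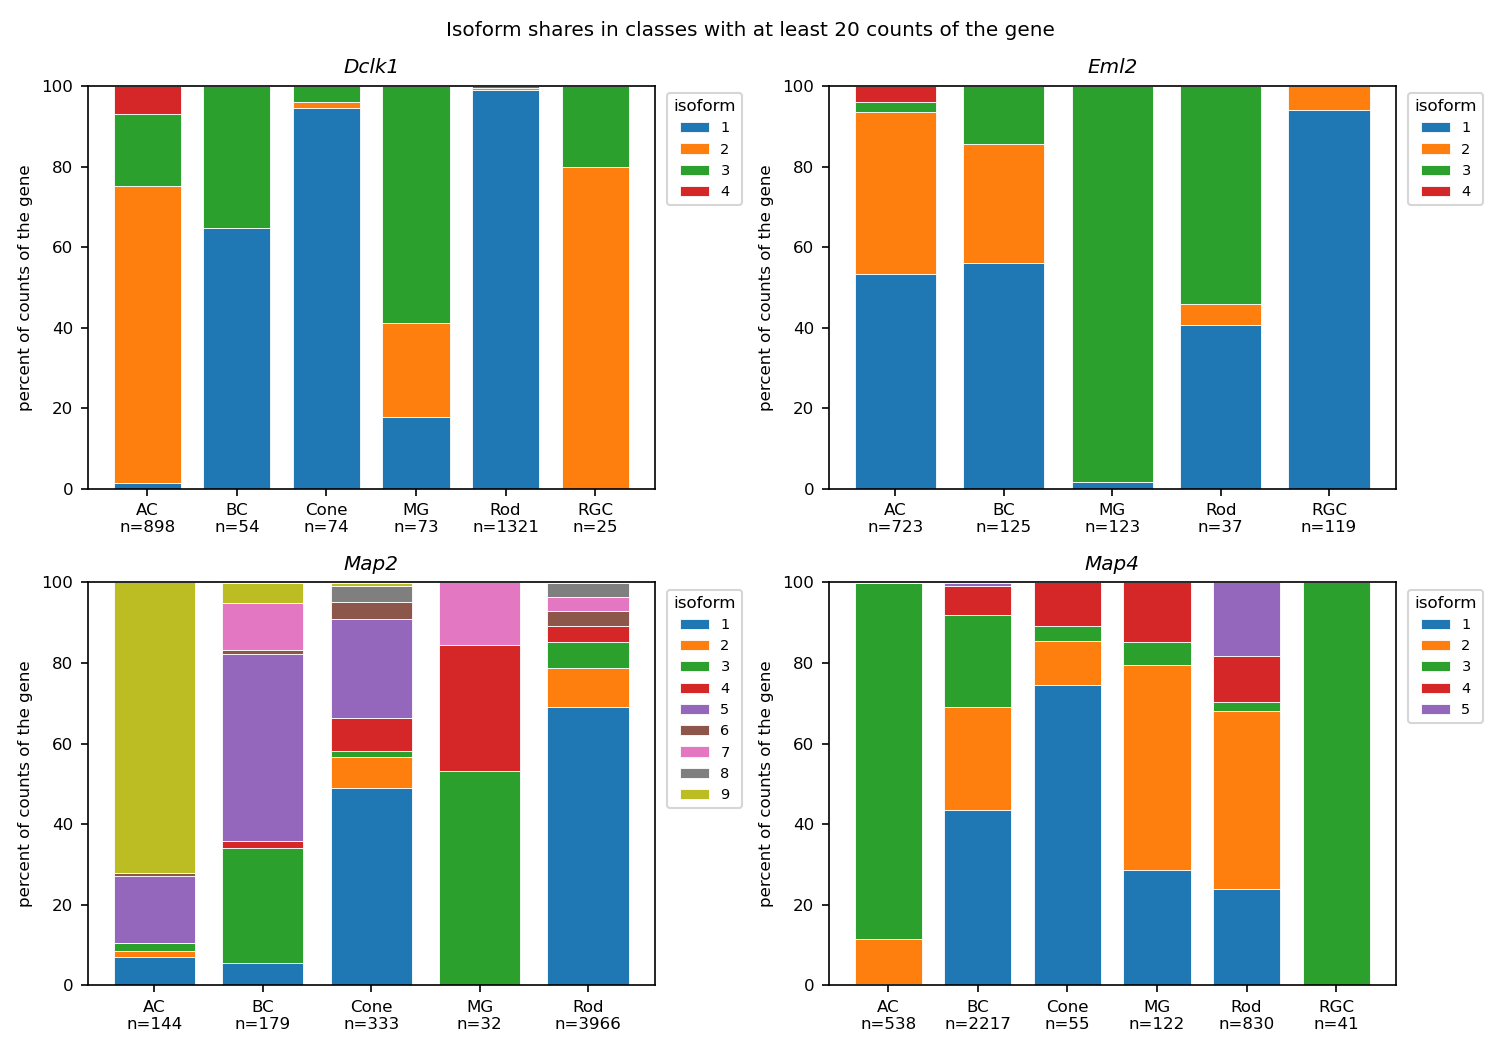
Share of each isoform (percent of the counts of the gene, y axis) by cell class (x axis, with the counts of the gene) for Dclk1, Eml2, Map2 and Map4, in classes with at least 20 counts. Isoform 1 of Dclk1 fills 99.0% of the rod bar and isoform 3 of Eml2 fills 98.4% of the Müller glia bar.

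A skipped exon was the other difference within Eml2. Isoform 2, which is not annotated, lacks the 98-nt exon, and its length is not a multiple of 3. The exon was skipped in 290 of 694 amacrine counts (41.8%, 38.1 to 45.6) and 37 of 125 bipolar counts (29.6%, 21.8 to 38.4). It was skipped in 7 of 119 in ganglion cells (5.88%), 2 of 37 in rods (5.41%) and 0 of 123 in Müller glia. Read from the same start, the skipped form gives a frame of 697 amino acids, and its stop codon lies 208 nt before the last exon junction.

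**Figure D2:**
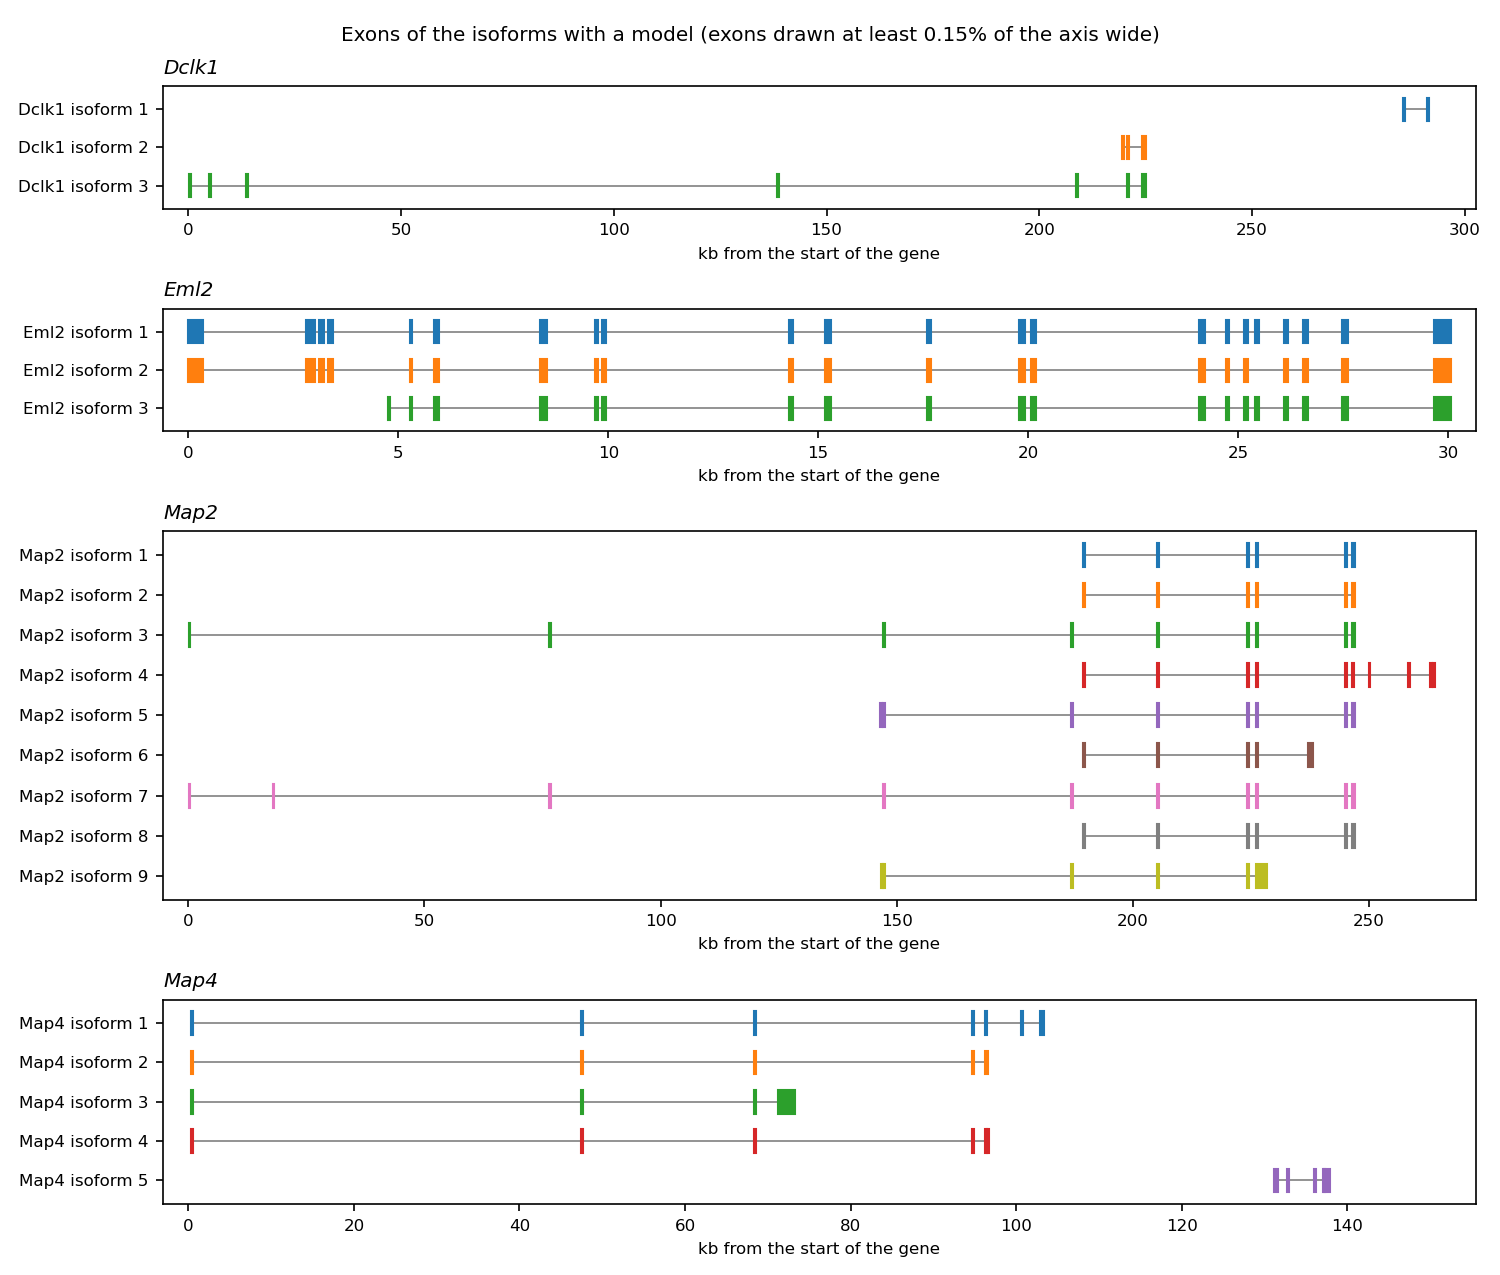
Exons of the isoforms with a model for Dclk1, Eml2, Map2 and Map4, by distance in kb from the start of the gene (x axis), with boxes for exons and lines for introns. The main rod isoform of Dclk1 has its 2 exons downstream of both other models, and Eml2 isoform 3 begins inside the gene.

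Mapt encodes tau, an axonal protein that stabilises microtubules through repeated binding segments. Its level was 198 CPM in bipolar cells, 124 in amacrine cells, 108 in Müller glia, 14.1 in rods, 9.99 in cones and 3.99 in ganglion cells, where it had 14 counts. The intervals of all neighbours in this order were separate, and the ganglion cells were the lowest class. The order of amacrine cells and Müller glia turned under scaling by the median of ratios, to 108 and 129 scaled CPM.

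Map2, a dendritic microtubule-associated protein widely used as a neuronal marker, was highest in photoreceptors. Its level was 71.5 CPM in rods, 45.6 in cones, 6.17 in bipolar cells, 5.22 in Müller glia and 2.98 in amacrine cells, with 0 counts in ganglion cells. Bipolar cells and Müller glia were the only neighbours whose intervals overlapped. The ganglion cell column had 0 counts for 2957 of the 9868 genes with at least 100 counts, and for 164 of the 3378 genes with at least 3000 counts (4.85%), among them Map2 and Map1b.

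Most Map2 counts came from models that stop early. Across classes, 4172 of 4654 counts (89.6%) ended at the same position inside an intron, 3247 nt from an annotated end. This end was used in 3657 of 3966 counts in rods (92.2%), 165 of 179 in bipolar cells (92.2%), 289 of 333 in cones (86.8%) and 22 of 32 in Müller glia (68.8%). In amacrine cells it was used in 39 of 144 (27.1%), and isoform 9, which ends inside an annotated exon at an earlier position, took 104 of 144 (72.2%, 64.2 to 79.4). Amacrine cells therefore had another main Map2 end than the other classes.

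The start of Map2, taken as the first base of a model, also differed between classes. The start of the main rod isoform was used in 3572 of 3966 counts in rods (90.1%), 243 of 333 in cones (73.0%) and 15 of 179 in bipolar cells (8.38%). The most upstream start was used in 72 of 179 counts in bipolar cells (40.2%), 22 of 32 in Müller glia (68.8%), 392 of 3966 in rods (9.88%) and 5 of 333 in cones (1.5%). Of the isoforms with this start, isoform 3 was the main one in Müller glia, with 17 of 32 counts (53.1%, 34.7 to 70.9), and took 51 of 179 in bipolar cells (28.5%), and isoform 7 took 5 of 32 and 21 of 179. The start of isoform 5 was used in 83 of 179 counts in bipolar cells (46.4%), 82 of 333 in cones (24.6%) and 1 of 3966 in rods. Cones and rods thus shared their main start, and cones also used a start that rods had in 1 count. In amacrine cells, the start of isoform 9 was used in 104 of 144 counts (72.2%) and that of isoform 5 in 24 of 144 (16.7%). These starts lie close together, at chr1:66321998 and chr1:66321836.

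The only Map2 isoform with both an annotated start and stop codon position was Map2-202, which encodes 467 amino acids. It took 161 of 3966 counts in rods (4.06%), 27 of 333 in cones (8.11%), 3 of 179 in bipolar cells (1.68%), 10 of 32 in Müller glia (31.3%) and 0 of 144 in amacrine cells. At site 1, the form without the CAG bases took 9.95% of counts in rods and 8.23% in cones, 2 of 39 in amacrine cells (5.13%, 0.627 to 17.3), 0 of 168 in bipolar cells and 0 of 32 in Müller glia. At site 2 it took 72.2% in amacrine cells, all of it from isoform 9, and 3.63% in rods, 4.80% in cones and 5.03% in bipolar cells.

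Map4, a microtubule-associated protein found in most tissues and not only in neurons, was highest in bipolar cells. Its level was 76.4 CPM in bipolar cells, 19.9 in Müller glia, 15.0 in rods, 11.7 in ganglion cells, 11.2 in amacrine cells and 7.53 in cones. The intervals of ganglion cells overlapped those of rods and of amacrine cells, and the other neighbours were separate. Bipolar cells were 3.84-fold above Müller glia, the next class.

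Isoforms 1 to 4 of Map4 began at the same position and used 3 ends, of which isoforms 2 and 4, which differ in their exons, had the same one. Isoform 3 (Map4-206), with an annotated protein of 99 amino acids, took 477 of 538 counts in amacrine cells (88.7%, 85.7 to 91.2) and 41 of 41 in ganglion cells (100%, 91.4 to 100). It took 506 of 2217 in bipolar cells (22.8%), 7 of 122 in Müller glia (5.74%), 2 of 55 in cones (3.64%) and 19 of 830 in rods (2.29%). As with Dclk1, amacrine and ganglion cells had the same main isoform, and it was a short coding one.

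The longest Map4 model by exons, isoform 1, took 41 of 55 counts in cones (74.5%), 964 of 2217 in bipolar cells (43.5%) and 35 of 122 in Müller glia (28.7%). It took 198 of 830 in rods (23.9%), 1 of 538 in amacrine cells and 0 of 41 in ganglion cells. Isoforms 2 and 4, which end at an annotated position, together took 461 of 830 in rods (55.5%) and 80 of 122 in Müller glia (65.6%). Neither holds an annotated stop codon position, and each covers 10.9% of the annotated coding bases. Isoform 5, from the 3′ part of the gene, took 152 of 830 counts in rods (18.3%) and 22 of 2217 in bipolar cells, and 0 in the other classes.

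For Map6, which protects microtubules from cold and is also called STOP, the order of the classes depended on which counts were taken. Under the gene itself, its level was 8.86 CPM in bipolar cells, 6.30 in cones, 2.55 in amacrine cells, 0.703 in rods, 0.163 in Müller glia (1 count) and 0 in ganglion cells. The intervals of bipolar cells and cones overlapped, and so did those of neighbours among the 3 lowest classes. A further 582 counts on the strand of Map6, more than the 466 under the gene, were listed under locus names. With them added, an alternative chosen after seeing the data, the level was 24.6 CPM in cones, 18.8 in ganglion cells (66 counts), 15.2 in bipolar cells, 5.49 in amacrine cells, 1.73 in rods and 0.163 in Müller glia. Cones and ganglion cells then stood above bipolar cells. The shares that follow are of counts under the gene. Map6-201, annotated with a protein of 906 amino acids, was the main isoform in the 4 classes with at least 20 counts. Its counted model of 1746 nt lacks an annotated start codon position and covers 59.1% of the annotated coding bases. Map6-202, of 306 amino acids, skips a 197-nt exon and took 14 of 46 counts in cones (30.4%, 17.7 to 45.8), 18 of 123 in amacrine cells (14.6%), 8 of 257 in bipolar cells (3.11%) and 2 of 39 in rods (5.13%).

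**Figure D3:**
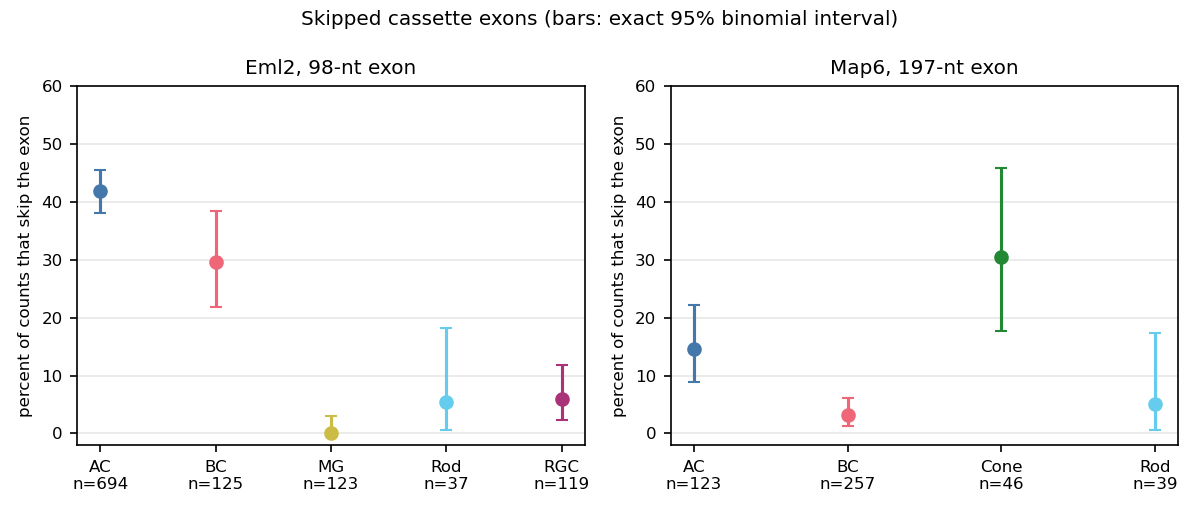
Percent of counts that skip the 98-nt exon of Eml2 and the 197-nt exon of Map6 (y axis) by cell class (x axis, with n counts), with exact 95% binomial intervals as bars. Amacrine cells are highest for Eml2 (41.8%), and cones are highest for Map6 (30.4%).

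Map1b, a large microtubule-associated protein of growing axons, was highest in cones. Its level was 64.3 CPM in cones, 35.5 in rods, 21.3 in bipolar cells, 2.93 in Müller glia and 2.32 in amacrine cells, with 0 counts in ganglion cells. The intervals of Müller glia and amacrine cells overlapped. Isoform 1, a 1255-nt model of 3 exons from the 3′ part of the gene, held 3083 of 3183 counts and covers 10.9% of the annotated coding bases. Isoform 2, which covers 3.69% of these bases, held 100 counts, 91 of them in rods (4.63% of 1966). Isoform 1 was thus the main model in all classes with at least 20 counts. Both models are partial and lie in different parts of the gene, so their shares do not give the mix of full-length Map1b isoforms.

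The stathmins Stmn1 and Stmn2, which bind tubulin dimers, were highest in ganglion cells and had 1 isoform each. Stmn1 was at 5993 CPM in ganglion cells, 3232 in amacrine cells, 963 in Müller glia and 878 in bipolar cells, with separate intervals, and photoreceptors were lowest, at 242 in cones and 156 in rods. Stmn2, which is restricted to neurons, was at 16.2 CPM in ganglion cells, 5.91 in amacrine cells, 0.325 in rods and 0.0689 in bipolar cells (2 counts), with 0 counts in cones and Müller glia. The 6 ganglion cell markers summed to 16915 CPM in ganglion cells and 382 in amacrine cells, and the part of ganglion cell RNA in the amacrine level of Stmn2 was not tested.

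**Figure D4:**
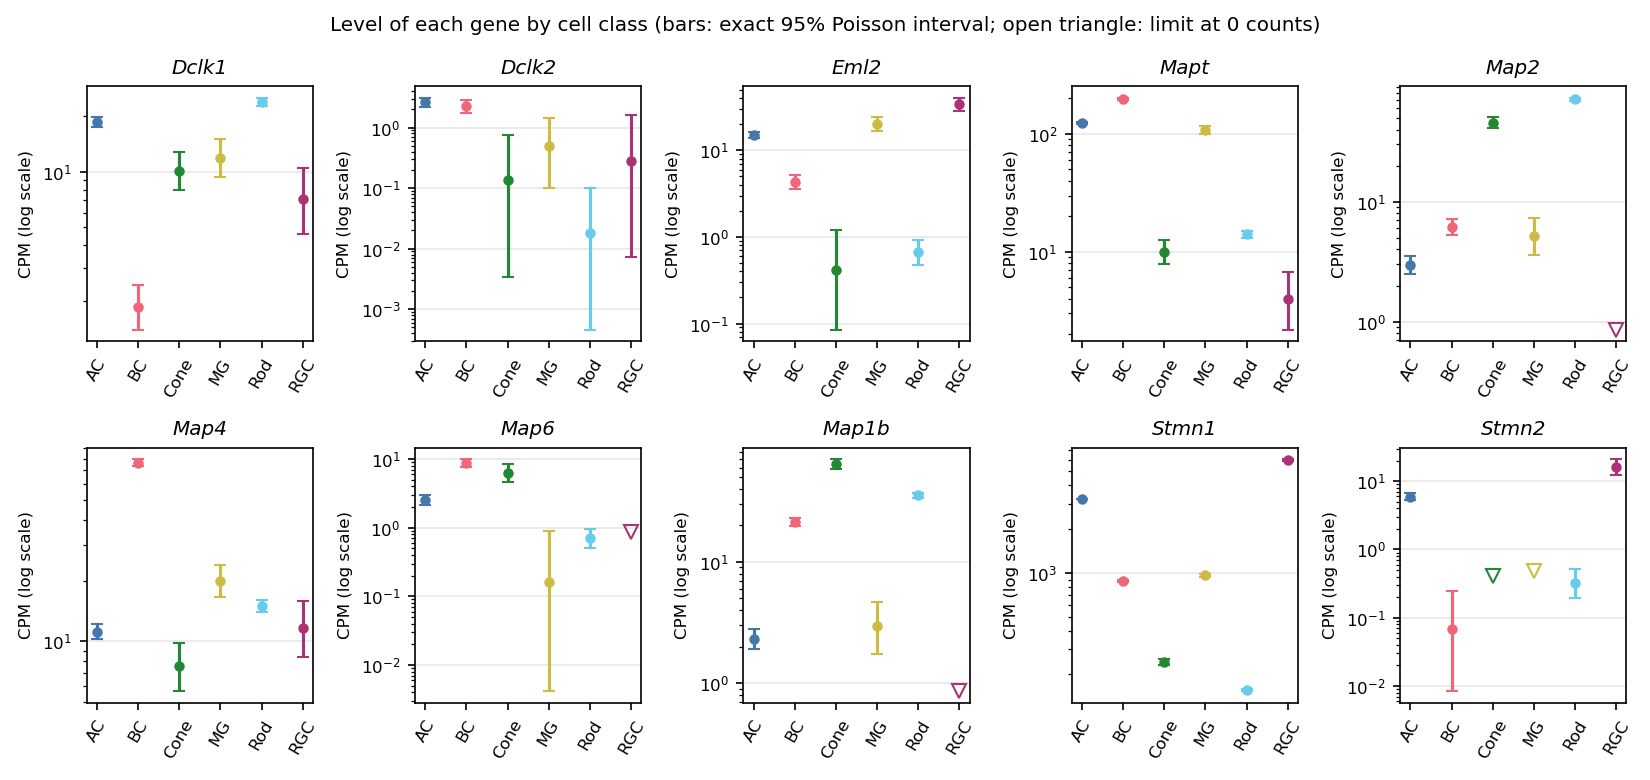
Level of each gene (CPM, log scale on the y axis) in the 6 cell classes (x axis), with exact 95% Poisson intervals as bars and open triangles at the limit for 0 counts. Stmn1, Stmn2 and Eml2 are highest in ganglion cells (5993, 16.2 and 33.9 CPM), where Map2, Map6 and Map1b have 0 counts listed under the gene.

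Against the rest of the transcriptome, the genes were read with 2 rules of size. A gene leaned to a class that held at least 50% of its CPM summed over the 6 classes. In all, 5 of the 10 genes leaned, against a background of 28.2% of 9868 genes with at least 100 counts. They were Map2 to rods (54.4%), Map4 to bipolar cells (54.0%), Map1b to cones (50.9%), and Stmn1 (52.3%) and Stmn2 (72.0%) to ganglion cells. Of all genes, 5.42% leaned to rods, 3.59% to bipolar cells, 1.42% to cones and 4.08% to ganglion cells. The first 4 lay within 5 points of the limit.

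Where a gene had at least 20 counts in both of 2 classes, it was called switched if the main isoform was not the same and its share moved by 50 percentage points or more. In all, 4 of the 8 genes that could be tested were switched, but nothing is read from Dclk1 and Eml2 here, which were chosen for it. Of the other 6 genes, 2 were switched, against a background of 25% of 7317 genes. They were Map2 in 7 of 10 pairs and Map4 in 9 of 15. Dclk1 was switched in 10 of 15 pairs and Eml2 in 5 of 10. Dclk2, Mapt, Map6 and Map1b were not switched, and Stmn1 and Stmn2 could not be.

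Incomplete models were common in some of the genes and absent from others. An isoform with both an annotated start and stop codon position held a median of 39.6% of the counts per gene over 9 genes, and 5 of the 9 were under 50%, against 23.6% of 9425 genes. Eml2, Mapt, Stmn1 and Stmn2 were at 100% on this measure and on the next. Under 50% of counts ended at an annotated 3′ end in 4 of the 9 (Dclk1 0%, Map2 7.84%, Map4 35.2% and Map1b 0%), against 31.8% of 9602 genes. Such an end does not make a model complete. The Map4 share came from isoforms 2 and 4, and part of the Map2 share from isoform 6, none with an annotated stop codon position. Unannotated isoforms held over 50% of counts in 5 of the 10, against 26.3% of 9868 genes. The 20 bases after ends that lay inside annotated exons held 1 to 10 A in 8 models, with a median of 5.5. The median was 5 in 7357 models, of which 0 held 12 or more. The comparison therefore cannot set the genes apart by A-rich ends. The main Map2 end, inside an intron, was not read, and Dclk1 isoforms 2 and 3 have the same end.

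Genes whose class profile was nearest were found by the Euclidean distance between shares of summed CPM over the 6 classes. For Dclk1 they were Cnbd2 (7.27 points), Taf5l (8.86) and Srr (9.06). For Eml2 they were Tmem14a (5.41), Flot1 (5.74) and Fxyd2 (6.14), and for Mapt they were Npas3 (5.48), Arid5b (5.76) and Gm27021 (8.06). For Stmn2 they were Thy1 (2.07), which encodes the CD90 antigen of the enrichment, Clec2l (2.51) and Gpr22 (2.61). Thy1 had 73.6% of its summed CPM in ganglion cells, 25.7% in amacrine cells and 0.128% in bipolar cells.

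Of 48 other microtubule genes listed, 39 had at least 100 counts and 15 of these leaned to a class: 7 to ganglion cells, 5 to rods and 1 each to amacrine cells, bipolar cells and cones. The background was 28.2% of 9868 genes for any class, and 5.69% for amacrine cells, beside the shares given above for the other classes. The genes that leaned to rods were Rp1, Eml1, Eml3, Map10 and Camsap1, and Rp1l1 leaned to cones. Those that leaned to ganglion cells were Tppp3, Stmn3, Dcx, Map1a, Map7d1, Camsap3 and Mark1, while Eml4 leaned to amacrine cells and Mark4 to bipolar cells. Rp1, a doublecortin-domain protein of the photoreceptor axoneme, was at 1120 CPM in rods, 256 in cones and 0 in ganglion cells. Tppp3, a tubulin polymerisation protein, was at 6267 CPM in ganglion cells and 208 in amacrine cells. Stmn3 was at 5550 CPM in ganglion cells, and Dcx, the doublecortin of migrating neurons, at 6.55. Of 30 that could be tested, 7 were switched: Map1a, Clasp2, Camsap3, Katnal1, Mark4, Mtus1 and Mid1. The background was 25% of 7317 genes, so this count lies near the rate over all genes.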

How the data were processed

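The authors deposited whole-number counts per isoform in 6 cell class columns and transcript models whose file contents name FLAIR. The build is mm10 per the submitters' processing notes, and GENCODE M21 (GRCm38) was the reference. The deposited models are the 36426 isoforms with at least 1 count in rods, so 12 isoforms of these genes, with 276 counts, have no exons and are left out of results on structure. Cell calling, cell typing, filters, which libraries entered a column, and whether molecular identifiers were counted are not given in the sources used here.

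Counts were summed per gene and divided by the column total. Isoforms are numbered by counts. All 10 genes are named. Isoforms at 10% or more of the gene in a class with at least 20 counts were to be named, and are given singly or as a range, except where left out. Other microtubule genes were named where they leaned or switched, or as the 3 nearest profiles. The genes and lists were chosen with earlier results of these data known. Python 3.11.15, pandas 2.3.3 and scipy 1.17.1 were used, and edgeR 4.0.16 and DESeq2 1.42.0 (R 4.3.3) gave scaling factors only. The switch rule was tested on simulated data. Promoters came from RefSeq (GRCm38.p6). No column was left unused. 1 sequence and the results that rest on it are not reported here.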

Additional observations from a re-analysis of the deposited data

Results flagged for a closer look

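Counts on the strand of a gene but listed under a locus name, not under the gene, lie outside the values of the report. For Map4 there were 363 such counts in 2 isoforms, beside 3803 under the gene. For Map6 there were 582 in 4 isoforms, more than the 466 under the gene, and 66 of them were in ganglion cells, where the gene itself had 0. For Map1b there were 60 in 1 isoform, 53 of them in rods. Each overlaps an annotated exon of the gene.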

How the results depend on the processing

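No paired analysis was possible because a class column pools its libraries, and no replicate could be left out for the same reason. The number of genes that lean to 1 class was 5, and it was 1 when only isoforms with an Ensembl identifier were counted and 9 at a limit of 40%. It was also 5 without the ganglion cell column, an alternative chosen after seeing the data, and Stmn1 and Stmn2 then leaned to amacrine cells. The number of switched genes was 4, with the chosen Dclk1 and Eml2 among them, and 5 at a difference of 25 points. For the other settings of both rules, the share over all genes was not computed, so these counts have no background. Of 229 recomputed values, 183 stayed within their counting interval (within 1.5 times for counts of genes) and 46 moved further. Whether an order reversed was not scored for these values. Some of them could not move, such as the shares of long forms of Stmn1 and Stmn2, which have 1 isoform each. The 34 recomputed exon inclusions all returned the same value. The count of 183 is therefore not a measure of how stable the results are. Counting only isoforms with an Ensembl identifier moved 6 of the levels in the highest class and left 4. It took Map1b in cones from 64.3 to 0 CPM and Stmn2 in ganglion cells from 16.2 to 0. Map2 in rods went from 71.5 to 2.90 CPM and Map4 in bipolar cells from 76.4 to 17.4. Adding the locus isoforms (chosen after seeing the data) took Map6 in bipolar cells from 8.86 to 15.2 CPM, below cones (24.6) and ganglion cells (18.8). Map2 and Map4 long forms depended on the definition of long, so shares of long forms are not given for them. Against the median of ratios, levels shift by -0.20 (log2) in amacrine cells and 0.25 in Müller glia. Depth limits ganglion cells most, where 3 counts are 0.855 CPM.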
